A study of Mus musculus and Homo sapiens with 18 samples.

Results

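The vascular endothelial growth factor (VEGF) ligands and receptors comprised 10 genes, taken by symbol from the row names of the mouse tumour table: 5 ligands (Vegfa, Vegfb, Vegfc, Vegfd and Pgf) and 5 receptors (Kdr, Flt1, Flt4, Nrp1 and Nrp2). They were 10 of the 55858 genes in that table and were listed there as 44 of its 147828 transcripts. The same gene identifiers were read in the table of the mouse line CUUC-G. The members were picked by name and not by a cutoff on measured values, but earlier results of these data were known at the time.

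The study sequenced poly(A)-selected RNA from mouse and human bladder carcinoma, and 12 mouse libraries in 4 groups of 3 were used. The first 2 groups came from a genetically engineered mouse model. One held control tumours and the other held tumours that had relapsed after chemotherapy with cisplatin and gemcitabine. The other two groups were CUUC-G cells that carried either a control guide RNA (sgScr) or a guide that targets Igfbp5 (sgIgfbp5). Igfbp5 codes for an extracellular binding protein of the insulin-like growth factors. The alleles, strain and age of the mice are not given in the sources used here, nor is whether a CUUC-G group is 1 clone. Nothing in the labels says whether the libraries of a group came from separate animals or cultures, so p-values measure only the spread between these samples, which may be technical.

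VEGF ligands are secreted dimers. VEGF-A, encoded by Vegfa, is the main driver of blood vessel growth and signals through the receptor tyrosine kinase VEGFR2 (Kdr). VEGFR1 (Flt1) binds VEGF-A, VEGF-B and placental growth factor (Pgf) tightly but signals weakly, and its soluble form traps ligand. VEGF-C and VEGF-D act mainly on VEGFR3 (Flt4), the receptor of lymphatic vessels. The neuropilins Nrp1 and Nrp2 have no kinase domain of their own and present ligands to the other receptors, and they also bind class 3 semaphorins. In normal tissue Kdr, Flt1 and Flt4 are best known from endothelial cells, while epithelial and mesenchymal cells make much of the ligand.

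Total estimated counts ran from 18964942 to 21757109 in the tumour libraries and from 19210830 to 20729980 in CUUC-G. Igfbp5, the targeted gene, had 20, 51 and 43 counts in the sgScr libraries and 12, 8 and 10 in the sgIgfbp5 libraries, from 1.97 ± 0.814 to 0.490 ± 0.108 CPM (counts scaled to the size of the library; SD, n = 3). The control tumours stood apart from the other 3 groups in sex-linked RNA: the Y-linked gene Ddx3y had 74.2 ± 4.02 CPM there and no count elsewhere, and Xist had 0.0845 CPM there against 483 CPM in relapsed tumours. The urothelial markers Krt5 and Upk3a had no count in any of the 12 libraries, although the labels name bladder cancer as the tissue. Krt8 had 1 count in the control tumours together and 8583 in the relapsed tumours, while Gata3, another urothelial marker, had 937 and 102. Summed over 10 fibroblast and mesenchymal genes, TPM (an abundance per transcript length, scaled to the same total in each library) lay between 3220 and 11910 in every library.

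Vegfa was the most abundant member in all 4 groups, and the receptor at the top of the order differed between groups. In control tumours Vegfa averaged 222 ± 10.3 TPM, Vegfb 44.6 ± 2.51, Vegfd 26.0 ± 1.68, Vegfc 1.62 ± 0.276 and Pgf 0.382 ± 0.0815 TPM (SD, n = 3). Ranges of neighbours in the ligand order did not overlap in any group, and the order changed only with sgIgfbp5, where Vegfc at 7.22 ± 1.07 TPM stood above Vegfd at 2.13 ± 0.405 TPM. Among the receptors, control tumours were led by Nrp2 and Nrp1, with Kdr lowest at 0.387 ± 0.0756 TPM. Relapsed tumours were led by Kdr, at 37.9 ± 1.43 TPM, followed by Nrp1, Nrp2, Flt4 and Flt1. The sgScr libraries had the same receptor order, with Kdr at 35.4 ± 1.79 TPM, but their ranges of Nrp2 and Flt4 overlapped. With sgIgfbp5 the order was Nrp1, Flt1, Kdr, Flt4 and Nrp2, and the last pair overlapped.

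**Figure D1:**
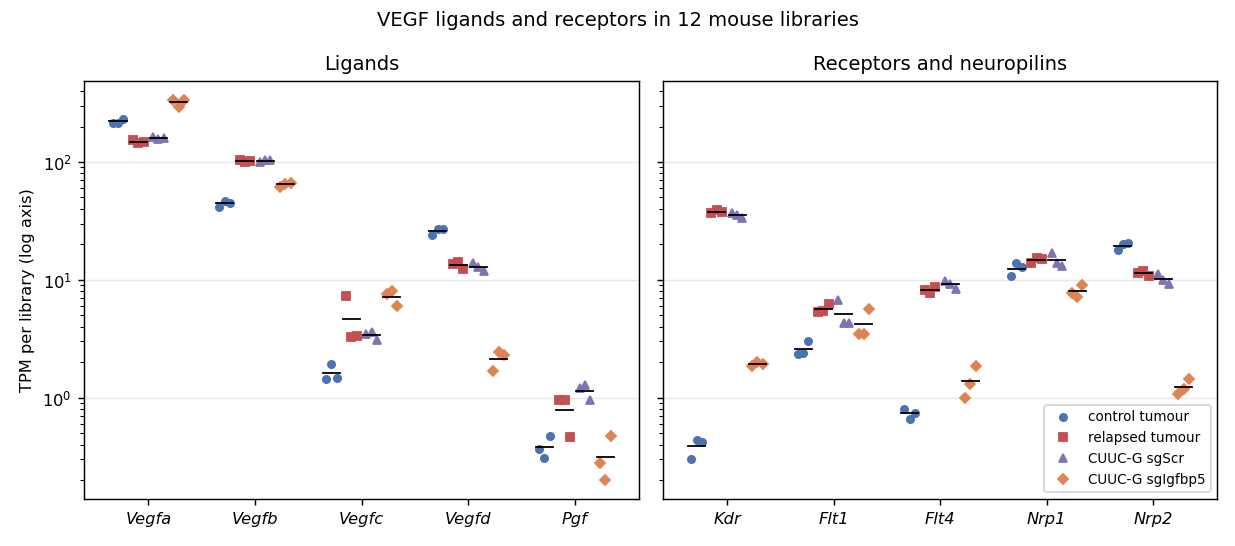
TPM of each VEGF ligand (left) and receptor (right) in 12 mouse libraries on a log axis, 1 point per library and a line at the mean of each group of 3. Kdr sits between 0.300 and 0.437 TPM in control tumours and between 36.6 and 39.4 TPM in relapsed tumours.

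Relapsed tumours and sgScr cells held closely similar member levels. In mean TPM, the higher group exceeded the lower by a factor between 1.00 (Vegfb) and 1.46 (Pgf). For Kdr this factor was 1.07 and for Flt4 it was 1.12. Both groups also had Xist and no count of Ddx3y, unlike the control tumours. The labels do not say how the relapsed tumours relate to CUUC-G, so the origin of the relapsed libraries is in doubt. In every value of relapsed against control tumours, relapse cannot be told apart from the sex and origin of the libraries. The tables of the tumours and of CUUC-G were made separately, so no test was run across them.

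The first comparison asked how the members differed between relapsed and control tumours. Of the 10 members, 9 passed the filter on low counts, and edgeR's quasi-likelihood test with Benjamini-Hochberg adjustment over 14373 genes called 6 higher and 3 lower at relapse, at a threshold of 0.05. Most genes were called in this comparison: 73.5% in either direction, 36.6% higher and 36.9% lower. The CPM of the groups did not overlap for any of the 10 members, against 75.3% of all tested genes, so being called is close to the background here and the sizes of the changes carry the description. In bulk samples fewer cells of a type and less RNA per cell cannot be told apart.

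Among the ligands, Vegfa and Vegfd were lower and Vegfb and Vegfc higher at relapse. Vegfa (ENSMUSG00000023951.19; GRCm38 chr17:46016993-46032369, minus strand) stood at 216, 216 and 234 TPM in the control libraries and at 153, 145 and 147 TPM in the relapsed ones. All relapsed libraries were below all controls, and the log2 fold change was -0.48 ± 0.04 (SE; edgeR adjusted p = 2.47e-12). Vegfb (ENSMUSG00000024962.14; chr19:6982473-6987651, minus), a ligand of Flt1, had 41.8, 46.7 and 45.2 TPM in controls and 105, 101 and 103 TPM at relapse. This was the largest gain among the tested ligands, with a log2 fold change of 1.36 ± 0.06 (edgeR adjusted p = 5.83e-17).

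The lymphatic ligands moved apart. Vegfd (ENSMUSG00000031380.11; chrX:164373378-164402650, plus) had 24.0, 27.1 and 26.8 TPM in controls and 13.6, 14.2 and 12.3 TPM at relapse. It fell by 0.83 ± 0.08 on the log2 scale (edgeR adjusted p = 1.09e-09), and it is X-linked, in a comparison where Xist differed as given above; the part of that difference in the result was not tested. Vegfc (ENSMUSG00000031520.7; chr8:54077606-54187096, plus) had 1.44, 1.93 and 1.47 TPM in controls and 7.32, 3.27 and 3.33 TPM at relapse. Relapsed library 1 stood high in TPM, with 16 of its counts assigned to Vegfc-203, a model of only 555 bases. On the main transcript Vegfc-201 that library had 2.84 TPM, next to 3.27 and 3.33. On gene counts Vegfc rose by 1.17 ± 0.21 on the log2 scale (edgeR adjusted p = 2.01e-05).

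Pgf (ENSMUSG00000004791.8; chr12:85166635-85177790, minus), the placental growth factor and a ligand of Flt1, was close to the limit of detection. Its counts summed to 18 in control and 45 in relapsed tumours, and their ratio was 2.51 (95% interval 1.43 to 4.61, which covers counting error only). In TPM the controls had 0.366, 0.310 and 0.470 and the relapsed tumours 0.947, 0.947 and 0.466, so relapsed library 3 lay within the control range. Pgf did not pass the filter. Without a filter its edgeR adjusted p was 0.0982, and it passed the filter and the threshold only when control library 3 or relapsed library 3 was left out, with edgeR adjusted p-values of 0.0385 and 0.022.

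All kinase receptors were higher at relapse, and Kdr changed most. Kdr (ENSMUSG00000062960.11; chr5:75932827-75978458, minus), the main signalling receptor for VEGF-A, had 25, 31 and 31 counts in the control libraries and 3019, 3251 and 3171 in the relapsed ones. Its level was 0.300, 0.437 and 0.423 TPM in controls and 36.6, 39.4 and 37.7 TPM at relapse, a near absence against a moderate level in every library. Mean CPM was 108 times higher at relapse, and the log2 fold change was 6.76 ± 0.09 (edgeR adjusted p = 8.76e-30). A called change beyond 6 on the log2 scale occurred in 1.37% of the tested genes, and Kdr ranked 151 of 14373 by size.

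Flt4 (ENSMUSG00000020357.4; chr11:49609263-49652739, plus), which binds VEGF-C and VEGF-D, had 0.797, 0.665 and 0.745 TPM in controls and 8.13, 7.65 and 8.64 TPM at relapse. It rose by 3.62 ± 0.11 on the log2 scale (edgeR adjusted p = 5.22e-21), and called changes beyond 3 made up 5.57% of the tested genes. Flt1 (ENSMUSG00000029648.14; chr5:147561604-147726011, minus) had 2.35, 2.37 and 3.02 TPM in controls and 5.29, 5.41 and 6.18 TPM at relapse, without overlap. Its log2 fold change was 1.32 ± 0.09 (edgeR adjusted p = 5.66e-13), a change of the size of that of Vegfb.

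The neuropilins moved in opposite directions and by less. Nrp2 (ENSMUSG00000025969.16; chr1:62703285-62818695, plus) had 17.9, 20.1 and 20.6 TPM in controls and 11.5, 11.96 and 10.8 TPM at relapse, and it fell by 0.63 ± 0.06 on the log2 scale (edgeR adjusted p = 1.51e-10). Nrp1 (ENSMUSG00000025810.10; chr8:128358604-128503363, plus) had 10.8, 13.8 and 12.8 TPM in controls and 14.0, 15.2 and 15.2 TPM at relapse. The difference was small: its log2 fold change was 0.39 ± 0.08 in counts (edgeR adjusted p = 0.000108) and 0.24 on the log2(TPM + 1) scale, where it did not pass (limma adjusted p = 0.0747).

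**Figure D2:**
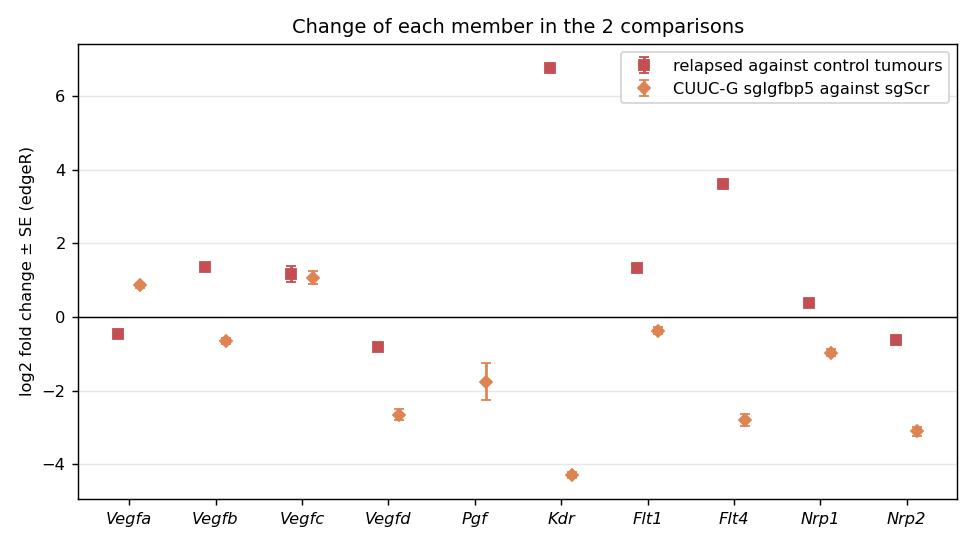
Log2 fold change ± SE (edgeR) of each member at relapse (squares) and with sgIgfbp5 in CUUC-G (diamonds). Kdr has the widest pair of changes, 6.76 and -4.29; Pgf has no square because it was not tested at relapse.

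The second comparison asked how the members differed between sgIgfbp5 and sgScr cells. All 10 passed the filter, and edgeR called 2 higher and 8 lower with sgIgfbp5. Of the 14553 genes tested, 70.8% were called, 36.5% higher and 34.3% lower, and the CPM of the groups did not overlap for 73.9% of genes and for all 10 members. All 5 receptors and 3 of the ligands were lower. In every value of sgIgfbp5 against sgScr, the guide cannot be told apart from a clone or culture that a group may share.

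Vegfa had 162, 156 and 161 TPM with sgScr and 336, 290 and 334 TPM with sgIgfbp5. Every sgIgfbp5 library was above every sgScr library, with a log2 fold change of 0.86 ± 0.07 (edgeR adjusted p = 5.51e-07). Vegfc, at 3.495, 3.58 and 3.07 TPM with sgScr and 7.61, 8.02 and 6.01 TPM with sgIgfbp5, was the only other member to rise, by 1.07 ± 0.17 on the log2 scale (edgeR adjusted p = 0.000146). Vegfb had 99.8, 104 and 104 TPM with sgScr and 61.3, 65.6 and 66.7 TPM with sgIgfbp5. It fell by 0.65 ± 0.08 on the log2 scale (edgeR adjusted p = 2.19e-05).

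Vegfd lost most among the ligands. Its levels were 14.0, 12.9 and 11.8 TPM with sgScr and 1.67, 2.43 and 2.31 TPM with sgIgfbp5, and its log2 fold change was -2.66 ± 0.15 (edgeR adjusted p = 4.08e-08). Xist also differed in this comparison, at 411 ± 96.5 CPM with sgScr and 1430 ± 394 CPM with sgIgfbp5 (SD, n = 3). The part of that difference in the fall of X-linked Vegfd was not tested. Pgf had 64 counts over the sgScr libraries and 20 over the sgIgfbp5 libraries, and it fell by 1.76 ± 0.49 on the log2 scale (edgeR adjusted p = 0.00766). Its sgIgfbp5 libraries were uneven, at 0.202, 0.148 and 0.611 CPM, and without library 3 the log2 fold change was -2.66.

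Kdr was again the receptor with the largest change. It had 37.0, 35.7 and 33.5 TPM with sgScr and 1.86, 1.999 and 1.92 TPM with sgIgfbp5, a mean CPM 19.6 times lower and a log2 fold change of -4.29 ± 0.09 (edgeR adjusted p = 2.45e-11). Its level with sgIgfbp5 was still above the 0.300 to 0.437 TPM of the control tumours, in a table made separately. Called changes beyond 3 on the log2 scale made up 6.11% of the tested genes in CUUC-G and included Kdr and Nrp2, while those beyond 6 made up 1.24% and included no member.

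Nrp2 and Flt4 followed in size. Nrp2 had 11.3, 9.93 and 9.24 TPM with sgScr and 1.07, 1.19 and 1.45 TPM with sgIgfbp5, a log2 fold change of -3.11 ± 0.12 (edgeR adjusted p = 1.38e-09). Flt4 had 9.76, 9.23 and 8.39 TPM with sgScr and 0.990, 1.31 and 1.86 TPM with sgIgfbp5, a log2 fold change of -2.80 ± 0.17 (edgeR adjusted p = 1.2e-07). Groups did not overlap for either receptor. Nrp1 fell less, from 17.02, 14.0 and 13.0 TPM to 7.73, 7.09 and 9.05 TPM, by 0.97 ± 0.11 on the log2 scale (edgeR adjusted p = 9.35e-06).

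Flt1 was the receptor that differed least between sgIgfbp5 and sgScr cells. In counts it fell by 0.37 ± 0.10 on the log2 scale (edgeR adjusted p = 0.00646). In TPM the groups overlapped, with 6.79, 4.34 and 4.31 under sgScr and 3.45, 3.44 and 5.66 under sgIgfbp5, and limma on log2(TPM + 1) gave -0.25 with an adjusted p of 0.368. The call therefore depends on the scale.

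Of the 9 members tested in both comparisons, 6 moved in opposite directions: Vegfb, Kdr, Flt1, Flt4 and Nrp1 were higher at relapse and lower with sgIgfbp5, and Vegfa was lower and then higher. Vegfc was higher in both, and Vegfd and Nrp2 were lower in both. Over all genes called in both comparisons, 83.4% of 7947 moved in opposite directions, so the members' share of 66.7% is no more than that of the background. Member levels in the relapsed tumours of the first comparison were close to those in sgScr, the reference of the second.

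The kinase receptors were read beside markers of the cells in which they are usually found. Of 15 endothelial markers, Tie1, Sox17 and Robo4 had no count in any group. Cdh5, the adhesion molecule of endothelial junctions, had no count in control tumours and 7 in the relapsed tumours together, where Kdr had 36.6 to 39.4 TPM. Pecam1 had 5 counts in control and 35 in relapsed tumours, at most 0.447 TPM. The summed TPM of the list was 16.2 to 25.2 in control tumours, 13.4 to 22.7 in relapsed tumours, 15.9 to 19.6 with sgScr and 12.6 to 20.95 with sgIgfbp5, and came mostly from Esam and Egfl7. These sums overlapped between the groups of each comparison, but Esam and Egfl7 moved in opposite directions within them. Of the 3 endothelial markers tested at relapse, Esam was called higher, at 8.41 to 14.0 against 5.31 to 5.78 TPM in controls. Egfl7 fell from 283 to 102 counts (log2 fold change -1.46 ± 0.25, edgeR adjusted p = 6.68e-06), and Tek, which encodes the receptor Tie2, fell from 45 to 5 counts (-3.08 ± 0.73, edgeR adjusted p = 0.000445). With sgIgfbp5 Esam fell from 760 to 139 counts (-2.54 ± 0.22, edgeR adjusted p = 1.65e-06), as Kdr did, and Egfl7 rose from 129 to 288 (1.07 ± 0.26, edgeR adjusted p = 0.00336). The other endothelial markers had too few counts to be tested there. Among them Tek went from no count to 34, Plvap from 2 to 34 and Mmrn2 from 5 to 24, against the direction of Kdr. Cdh5 went from 10 counts to none and Cldn5 from 2 to none.

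The lymphatic, urothelial and immune sums were higher at relapse and lower with sgIgfbp5, as Kdr and Flt4 were, without overlap. Opposite directions were the common case, at 83.4% of all genes called in both comparisons. The summed TPM of 6 lymphatic markers was 21.4 to 23.3 in control and 203.2 to 207.4 in relapsed tumours, and 197 to 217 with sgScr and 4.26 to 6.08 with sgIgfbp5. Nearly all of it was Pdpn, while Prox1 had 2 counts in control and 17 in relapsed tumours and Ccl21a none. The 16 urothelial markers summed to 23.6 to 28.6 TPM in control and 390 to 413 in relapsed tumours, and to 395 to 398 with sgScr and 108 to 128 with sgIgfbp5. Krt8, Krt18, Upk1b and Upk3b made up most of the sums in relapsed tumours and sgScr cells, and Krt8 and Krt18 most of those with sgIgfbp5. In control tumours Gata3 (6.72 to 9.9 TPM) and Pparg (5.41 to 6.18 TPM) were the largest parts. Other members went the other way. Gata3 fell at relapse (log2 fold change -3.19 ± 0.18, edgeR adjusted p = 8.52e-15) and rose with sgIgfbp5 from 88 to 960 counts, where Foxa1 rose from 5 to 272. The 12 immune markers summed to 3.36 to 4.90 TPM in control and 5.39 to 9.17 in relapsed tumours, and to 5.09 to 5.94 with sgScr and 2.54 to 3.86 with sgIgfbp5. Both immune genes tested, the macrophage markers Csf1r and Cd68, were called higher and then lower: Csf1r had 24 and 109 counts in the tumours and 100 and 4 in CUUC-G. Other myeloid markers of the list did not pass the filter and did not rise at relapse. From control to relapsed tumours, Lyz2 had 27 and 5 counts, Adgre1 had 3 and 0, and Itgam had 2 and 0. Ptprc, the pan-leukocyte marker, had 2 counts in the control tumours and none in the other groups, and Cd3e was at 0 throughout.

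The pericyte and fibroblast sums fell at relapse, where the kinase receptors rose. The 8 pericyte markers summed to 18.4 to 20.05 TPM in control and 13.6 to 15.6 in relapsed tumours, and to 12.3 to 15.6 with sgScr and 13.1 to 15.4 with sgIgfbp5, which overlapped. Pdgfrb made up most of this sum. The pericyte genes Rgs5 (20 and 234 counts in the tumours, 176 and 10 in CUUC-G) and Cox4i2 (5 and 51, then 65 and none) were called higher at relapse and lower with sgIgfbp5, as Kdr was. Notch3 and Pdgfrb were called the other way in both comparisons. Notch3 had 676 and 84 counts in the tumours and 90 and 649 in CUUC-G. Pdgfrb had log2 fold changes of -0.58 ± 0.07 at relapse and 0.39 ± 0.10 with sgIgfbp5. The fibroblast genes summed to 11370 to 11910 TPM in control and 7063 to 7179 in relapsed tumours, and to 6977 to 7235 with sgScr and 3220 to 3742 with sgIgfbp5. Single genes of this list were split: of 10 tested, 5 were called higher and 5 lower at relapse. Vim, Pdgfra, Fap, S100a4 and Cdh2 were those higher at relapse. With sgIgfbp5, 2 were called higher and 8 lower. The part of these cell type genes in the receptor changes was not tested.

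**Figure D3:**
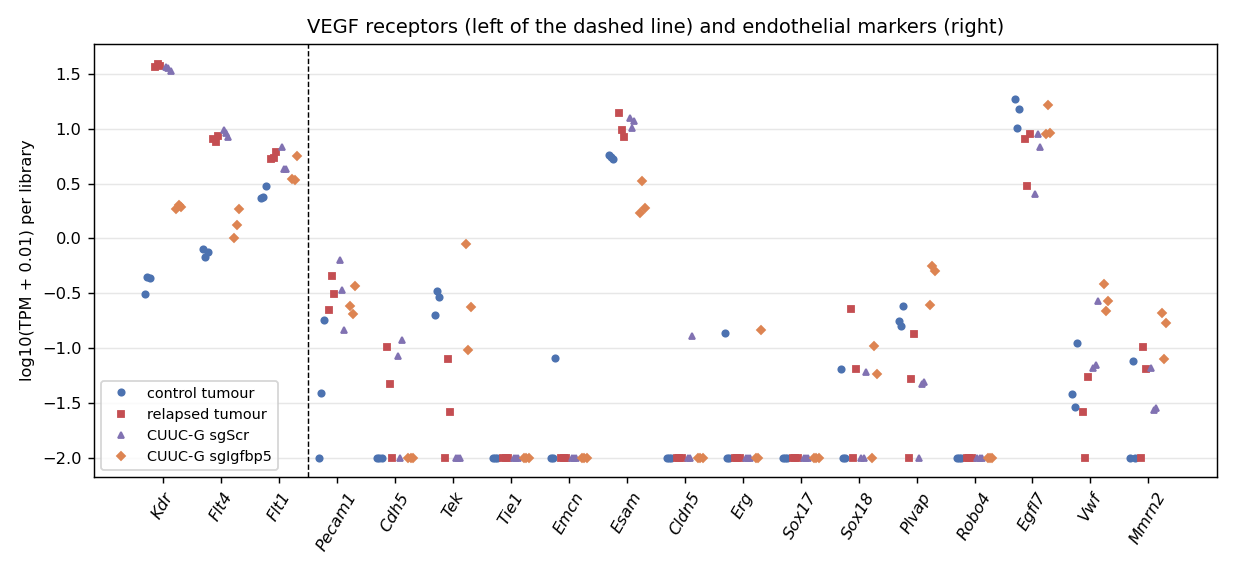
Levels of Kdr, Flt4 and Flt1 (left of the dashed line) and of 15 endothelial markers (right), as log10(TPM + 0.01) in each of 12 libraries. Kdr and Flt4 are high in relapsed tumours and sgScr cells, while Tie1, Sox17 and Robo4 lie at 0 TPM, the floor of the axis, in all libraries.

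The make-up of the ligand pool shifted between Vegfa and Vegfb. Of the summed ligand TPM, Vegfa made up 76.2%, 73.9% and 76.0% in control libraries and 54.7%, 54.97% and 55.2% in relapsed ones. Vegfb made up 14.7%, 16.01% and 14.7% in controls and 37.5%, 38.1% and 38.7% at relapse, and Vegfd went from 8.82% ± 0.420 to 4.96% ± 0.382 (SD, n = 3). In CUUC-G the shift ran the other way. Vegfa made up 57.1% ± 0.790 of the pool with sgScr and 81.1% ± 1.73 with sgIgfbp5, Vegfb 36.6% ± 0.936 and 16.4% ± 1.41, and Vegfd 4.62% ± 0.380 and 0.545% ± 0.126. Groups did not overlap for any of the 5 ligands in either comparison. Each two-sided exact permutation test gave p = 0.1, the smallest that 3 against 3 libraries allow, and 0.1 after adjustment over the 10 shares.

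**Figure D4:**
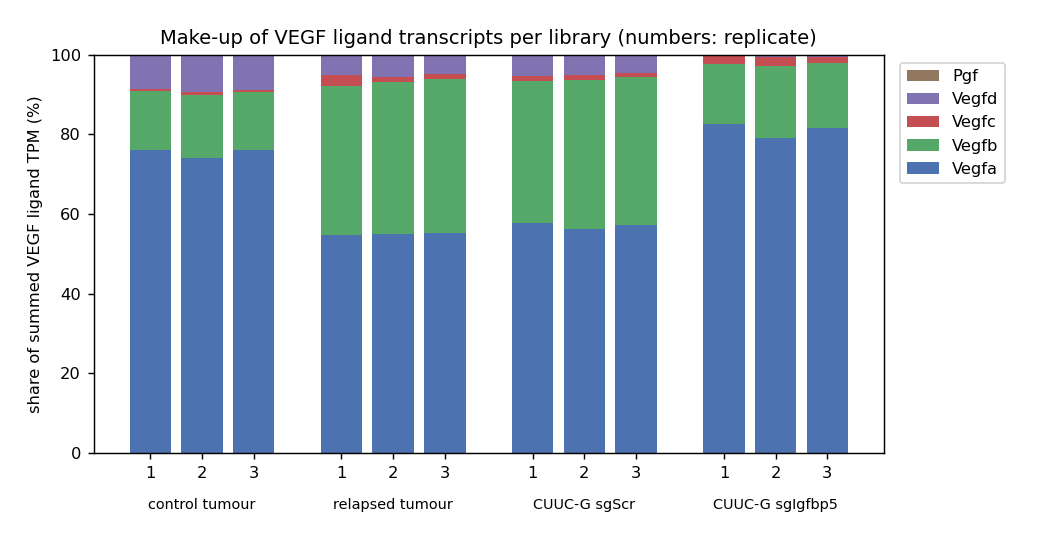
Share of each ligand in the summed VEGF ligand TPM (vertical axis, percent), 1 bar per library and 3 replicates per group. Vegfb fills 37.5% to 38.7% of the bar in relapsed tumours and 14.7% to 16.01% in controls.

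Isoforms could be compared in the tumours, whose table lists transcripts. Of the 44 member transcripts, 22 passed the filter, and edgeR over 32281 transcripts called 8 higher and 4 lower at relapse. Over all transcripts tested, 32.5% were called, 16.2% higher and 16.3% lower. Estimates for isoforms of a gene share reads, so each isoform was also expressed as a share of the TPM of its gene.

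Vegfa isoforms differ in a heparin-binding stretch of the protein that holds the ligand at the cell surface and in the matrix. This stretch is encoded by optional exons, in GRCm38 on the minus strand an exon of 72 bases at chr17:46022277-46022348 and one of 132 bases at chr17:46020991-46021122. The coding sequence across this choice is shown for the 3 main coding isoforms because the shares below turn on it. Each starts with the last 30 bases of the coding exon before the choice and ends with the 19 bases that close the reading frame before the stop codon. Optional exons are in capitals, and all 3 are given in the direction of transcription from GENCODE M21 transcripts, whose models of the 44 member transcripts have the lengths given in the table.
Vegfa-201: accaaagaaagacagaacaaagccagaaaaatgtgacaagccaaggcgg
Vegfa-202: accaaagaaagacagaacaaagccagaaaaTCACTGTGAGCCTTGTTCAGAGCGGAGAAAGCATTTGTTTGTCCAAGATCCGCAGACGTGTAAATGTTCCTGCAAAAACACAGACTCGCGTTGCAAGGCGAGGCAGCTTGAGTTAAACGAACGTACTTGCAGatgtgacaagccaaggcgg
Vegfa-207: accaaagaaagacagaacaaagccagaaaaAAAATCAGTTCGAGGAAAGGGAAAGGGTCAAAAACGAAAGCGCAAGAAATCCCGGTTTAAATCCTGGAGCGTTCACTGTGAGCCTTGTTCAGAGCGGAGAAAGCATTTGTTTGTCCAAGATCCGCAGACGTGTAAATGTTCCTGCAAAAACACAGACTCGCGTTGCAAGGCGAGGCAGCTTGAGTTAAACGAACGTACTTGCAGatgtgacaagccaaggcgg

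Vegfa-202, with the longer optional exon alone, was the leading isoform in controls. It made up 49.1%, 46.7% and 46.6% of Vegfa TPM there and 43.2%, 38.6% and 38.0% at relapse. Vegfa-201, which lacks both exons and encodes the diffusible form, made up 33.1%, 34.7% and 31.5% in controls and 35.8%, 38.0% and 37.7% at relapse. Vegfa-207, which carries both, went from 4.90%, 5.41% and 6.34% to 7.97%, 12.4% and 10.7%. For each of these isoforms the groups did not overlap, and the two-sided exact permutation p was 0.1, or 0.182 after adjustment over the 20 isoform shares tested. As amounts, Vegfa-202 fell by 0.69 ± 0.08 (edgeR adjusted p = 0.0014) and Vegfa-201 by 0.27 ± 0.03 on the log2 scale (edgeR adjusted p = 0.00102). Vegfa-207 was not called, with a log2 fold change of 0.44 ± 0.20 (edgeR adjusted p = 0.144). Vegfa-205, a retained-intron model, made up 6.49% ± 1.26 in controls and 4.18% ± 1.86 at relapse (SD, n = 3), and the groups overlapped. It was not called as an amount (-1.10 ± 0.39, edgeR adjusted p = 0.0845).

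Nrp2 has isoforms that differ before the membrane-spanning part and in the last coding exon. An optional exon of 51 bases lies at chr1:62812534-62812584 on the plus strand of GRCm38. The junction with and without it is shown because the isoform that carries it had the largest fall among the coding isoforms called lower. The optional exon is in capitals, after the last 21 bases of the exon before it, again from GENCODE M21.
Nrp2-204: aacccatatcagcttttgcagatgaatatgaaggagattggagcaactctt
Nrp2-202: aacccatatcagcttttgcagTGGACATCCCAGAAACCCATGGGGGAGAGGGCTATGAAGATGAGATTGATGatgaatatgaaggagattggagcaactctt

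Nrp2-202 had 31.1%, 42.3% and 38.7% of Nrp2 TPM in controls and 20.1%, 21.7% and 25.9% at relapse. As an amount it fell by 1.38 ± 0.18 on the log2 scale (edgeR adjusted p = 0.00185), against 0.63 for the whole gene. Nrp2-204, which skips the exon, made up 25.7% ± 0.564 in controls and 34.3% ± 6.69 at relapse. Nrp2-205, which ends in the other last coding exon at chr1:62795709-62795986, made up 26.7% ± 3.45 and 35.1% ± 1.64. Neither was called as an amount, with log2 fold changes of -0.22 ± 0.18 (edgeR adjusted p = 0.437) and -0.25 ± 0.14 (edgeR adjusted p = 0.232). Summed by last coding exon, a grouping chosen after the data were seen, isoforms with the exon at chr1:62795709-62795986 went from 28.7%, 31.7% and 29.7% to 39.2%, 38.1% and 38.4%. Their exact permutation p was 0.1, or 0.182 after adjustment, as for the 3 single isoforms.

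**Figure D5:**
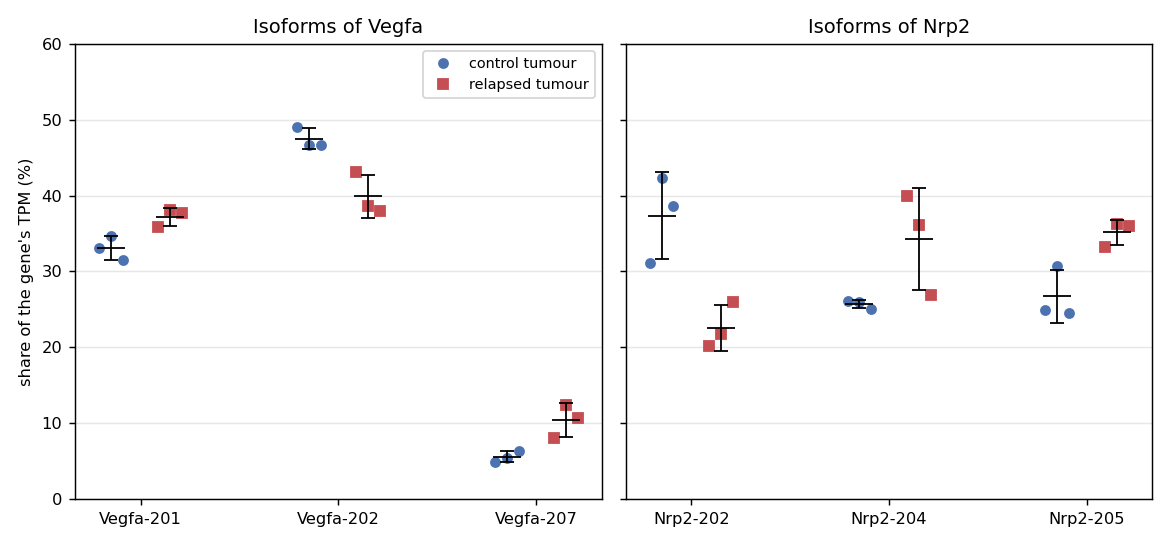
Share of the gene's TPM taken by 3 isoforms each of Vegfa (left) and Nrp2 (right) in control and relapsed tumours, 1 point per library with mean and SD of 3. Nrp2-202 lies between 31.1% and 42.3% in controls and between 20.1% and 25.9% at relapse.

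Flt1 RNA was divided about evenly between the membrane receptor and the soluble form. Flt1-202, with a reading frame of 1333 codons for the whole receptor, had 1.20, 1.19 and 1.20 TPM in controls and 2.54, 2.24 and 2.66 TPM at relapse. Flt1-203, with 688 codons and the soluble product, had 1.15, 1.19 and 1.12 TPM in controls and 2.75, 3.18 and 2.70 TPM at relapse. Both rose, by 1.18 ± 0.14 (edgeR adjusted p = 0.00155) and 1.44 ± 0.15 on the log2 scale (edgeR adjusted p = 0.000724). Their shares of Flt1 TPM overlapped between the groups. As shares of estimated counts, Flt1-202 did not overlap, at 54.1%, 52.7% and 54.3% in controls and 51.0%, 44.2% and 52.0% at relapse (two-sided exact permutation p = 0.1), while Flt1-203 did. A short noncoding model, Flt1-204 of 395 bases, took 23.2% of Flt1 TPM in control library 3 and 10.7% in relapsed library 3 on 1 count each, which lowers the shares of both coding isoforms there.

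Vegfb isoforms differ at the end of the protein. Vegfb-201, of 207 codons, made up 72.2%, 75.4% and 75.5% of Vegfb TPM in controls and 63.9%, 68.7% and 71.2% at relapse. Vegfb-202, of 188 codons, made up 25.8%, 17.2% and 20.4% in controls and 30.8%, 28.8% and 27.9% at relapse. Groups did not overlap for either isoform (exact permutation p = 0.1, or 0.182 adjusted). Both rose as amounts, by 1.22 ± 0.07 (edgeR adjusted p = 8.51e-05) and 1.82 ± 0.17 on the log2 scale (edgeR adjusted p = 0.000501). Kdr, Flt4, Nrp1 and Vegfd were each carried by 1 transcript, with at least 95.8% of gene TPM in every tumour library. Kdr-201 had 25, 31 and 31 counts in controls and 3016, 3246 and 3168 at relapse.

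Genes that act before, beside and after the members were read from 6 further lists. The counts of each list stand against all tested genes, of which 36.6% were higher and 36.9% lower at relapse. With sgIgfbp5 these shares were 36.5% and 34.3%. Of the 7947 genes called in both comparisons, 83.4% moved in opposite directions, so such a pattern is common and not particular to a list. The proteases and the cofactor that release or activate VEGF-C and VEGF-D were mostly higher at relapse and lower with sgIgfbp5: 8 of 10 tested genes were higher and 1 lower at relapse, and 1 of 9 was higher and 8 lower with sgIgfbp5. The median log2 fold changes were 0.79 and -1.18, against 0.00 and 0.06 over all tested genes. Adamts3, the protease that cuts pro-VEGF-C, rose from 5.49 ± 0.163 to 59.0 ± 2.72 CPM at relapse (log2 fold change 3.43 ± 0.09, edgeR adjusted p = 3.35e-23). It fell from 58.0 ± 10.8 to 5.88 ± 0.770 CPM with sgIgfbp5 (-3.30 ± 0.16, edgeR adjusted p = 1.97e-08). Plau, the urokinase plasminogen activator, rose by 1.58 ± 0.08 at relapse (edgeR adjusted p = 5.01e-16) and fell by 1.45 ± 0.09 on the log2 scale with sgIgfbp5 (edgeR adjusted p = 5.57e-08). Cathepsin D (Ctsd) rose at relapse from 264 ± 1.58 to 418 ± 4.05 CPM, and the tissue plasminogen activator Plat fell with sgIgfbp5 from 53.6 ± 1.09 to 12.3 ± 1.29 CPM. Ccbe1, the cofactor of Adamts3, had 259 counts over the sgScr libraries and none with sgIgfbp5, at least 91.9-fold lower when the group without counts is set to a floor of 3 in all; it was named after its values were seen.

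Of 9 tested oxygen-sensing genes, 6 were higher and 3 lower at relapse, and 2 were higher and 5 lower with sgIgfbp5, with median log2 fold changes of 0.67 and -0.32. Hif1a, the hypoxia-inducible factor subunit that drives Vegfa transcription under low oxygen, rose from 329 ± 21.5 to 690 ± 3.70 CPM at relapse (log2 fold change 1.07 ± 0.04, edgeR adjusted p = 6.48e-19). With sgIgfbp5 it fell from 605 ± 38.5 to 118 ± 19.6 CPM (-2.35 ± 0.12, edgeR adjusted p = 2.79e-08). In both comparisons Vegfa RNA moved in the direction opposite to that of Hif1a RNA. Protein was not measured, and the part of Hif1a in the Vegfa changes was not tested. Epas1, the paralogue of Hif1a, fell from 11.8 ± 0.539 to 0.339 ± 0.115 CPM with sgIgfbp5 (-5.08 ± 0.23, edgeR adjusted p = 5.35e-09). Egln3, a prolyl hydroxylase that marks these factors for decay, rose by 2.70 ± 0.08 at relapse (edgeR adjusted p = 4.26e-22) and fell by 2.59 ± 0.08 on the log2 scale with sgIgfbp5 (edgeR adjusted p = 3.62e-10). Egln1, a second such hydroxylase, rose at relapse from 62.2 ± 4.36 to 120 ± 7.16 CPM.

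RNA-binding proteins known to act on AU-rich messages such as that of Vegfa were mostly higher at relapse, 5 of 7 with 1 lower. With sgIgfbp5, 0 were higher by edgeR and 4 lower, and the medians were 0.74 and -0.31. Hnrnpd rose from 76.0 ± 0.741 to 162 ± 1.54 CPM at relapse. Khsrp, which promotes decay of such messages, rose from 128 ± 4.48 to 224 ± 4.88 CPM at relapse and fell from 256 ± 11.2 to 175 ± 2.85 CPM with sgIgfbp5. Hnrnpl and Zfp36l1 fell with sgIgfbp5 by 0.38 ± 0.06 (edgeR adjusted p = 0.00021) and 0.31 ± 0.07 on the log2 scale (edgeR adjusted p = 0.00246). In limma on log2(TPM + 1) without a TPM filter both calls were lost, with adjusted p-values of 0.17 and 0.0501, and Hnrnpl also lost its call with the TPM filter (limma adjusted p = 0.0978). At relapse Hnrnpl rose from 216 ± 8.65 to 361 ± 8.95 CPM.

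Most class 3 semaphorins share the neuropilins with VEGF ligands, and plexins are the signalling partners of this class. Of 12 tested genes 7 were higher and 5 lower at relapse, and 5 were higher and 5 lower with sgIgfbp5. Sema3a, a ligand of Nrp1, rose from 220 ± 5.32 to 430 ± 3.22 CPM at relapse and fell from 382 ± 26.8 to 141 ± 31.7 CPM with sgIgfbp5. Sema3e rose from 16.2 ± 1.12 to 74.5 ± 2.27 CPM and fell from 74.1 ± 4.74 to 11.6 ± 2.94 CPM. Plxna3, a plexin that pairs with neuropilins, went the other way: its log2 fold change was -2.70 ± 0.09 at relapse (edgeR adjusted p = 2e-20) and 2.51 ± 0.10 with sgIgfbp5 (edgeR adjusted p = 2.2e-09).

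Kinases and adaptors that act after the receptors showed no common direction. Of 15 tested genes 6 were higher, 5 lower and 4 not called at relapse, and 3 were higher, 5 lower and 7 not called with sgIgfbp5, with medians of -0.07 in both. Vav3, a guanine nucleotide exchange factor, rose from 1.33 ± 0.240 to 19.4 ± 2.40 CPM at relapse and fell from 17.9 ± 0.570 to 5.34 ± 0.222 CPM with sgIgfbp5. Plcg1, the phospholipase that docks to activated VEGFR2, rose with sgIgfbp5 from 71.2 ± 2.68 to 101 ± 6.36 CPM, where Kdr fell. Prkca fell with sgIgfbp5 from 53.0 ± 5.35 to 14.3 ± 1.66 CPM. At relapse Ptk2, which encodes focal adhesion kinase, fell from 218 ± 10.9 to 115 ± 1.33 CPM and Mapkapk2 rose from 124 ± 2.98 to 186 ± 3.48 CPM.

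Angiogenic ligands outside the family were spread widely. At relapse 6 of 11 tested genes were higher and 4 lower, and with sgIgfbp5 3 of 12 were higher and 8 lower, with medians of 1.21 and -2.35. Apln, the ligand of the apelin receptor, rose from 2.13 ± 0.294 to 32.1 ± 0.981 CPM at relapse (log2 fold change 3.91 ± 0.12, edgeR adjusted p = 4e-21). It fell from 33.1 ± 2.43 to 1.96 ± 0.234 CPM with sgIgfbp5 (-4.08 ± 0.13, edgeR adjusted p = 5.52e-10). Angptl4 rose by 3.80 ± 0.09 at relapse (edgeR adjusted p = 1.64e-20) and fell by 1.33 ± 0.09 on the log2 scale with sgIgfbp5 (edgeR adjusted p = 1.03e-07). Angptl2 fell in both, with log2 fold changes of -1.74 ± 0.05 (edgeR adjusted p = 1.95e-21) and -2.44 ± 0.12 (edgeR adjusted p = 8.52e-09). Angpt1, the ligand of the receptor Tie2, had 349 counts with sgScr and none with sgIgfbp5, at least 124-fold lower; it too was named after its values were seen.

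The genes whose pair of log2 fold changes lay nearest to that of a member were found among 12438 protein-coding genes tested in both comparisons, by Euclidean distance over the 2 comparisons. For Vegfa, Mrpl37, Phkg2, Pot1b and Smad4 were among the nearest, at distances of 0.0172 to 0.0242. For Kdr, the receptor with the highest mean over the 12 libraries at 18.9 TPM, they were Ppl, Ptprq, Tmem52b, Pcp4l1 and Cyp26a1, at 0.433 to 0.755. Fewer genes lay near Kdr, whose pair of changes is extreme. Ppl, which encodes the desmosomal protein periplakin, went from 1.00 to 80.8 CPM at relapse with a log2 fold change of 6.35, next to 1.44 and 156 CPM for Kdr. Tmem52b and Cyp26a1 had no count in control tumours, so their fitted fold changes depend on the prior count and are not read as sizes.

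RefSeq promoters on GRCm38.p6 were found for all 10 members, and the 250 bases before the start were searched on both strands for ACGTG and GCGTG, the cores of the hypoxia response element, and for GGGCGG, a core bound by SP1. ACGTG and GCGTG cannot cover the same 5 bases on 1 strand, though any of these motifs may share end bases with another. A core of either kind was in 6 of 10 member windows, against 38.6% of 32851 mouse windows of the same length. ACGTG was in none of them, against 16.6% of all windows. GGGCGG was in 9 of 10, against 32.7%. G and C made up 59.2% to 76.4% of the bases in these 9 windows and 42.4% in that of Vegfd, which lacked the motif. The windows compared were not matched for base composition, so the share of GGGCGG cannot be told apart from it. The window of Kdr is shown because its RNA had the largest change in both comparisons, and that of Vegfa because it is the most abundant ligand. Capitals mark hypoxia cores, of which Kdr had 2, starting 131 and 89 bases before the start, and Vegfa had none in its window. Bases farther upstream were not searched. A match is a description of letters, not of a bound site. The Kdr window is chr5:75978456-75978705 and that of Vegfa is chr17:46032378-46032627, both on the minus strand.
Kdr: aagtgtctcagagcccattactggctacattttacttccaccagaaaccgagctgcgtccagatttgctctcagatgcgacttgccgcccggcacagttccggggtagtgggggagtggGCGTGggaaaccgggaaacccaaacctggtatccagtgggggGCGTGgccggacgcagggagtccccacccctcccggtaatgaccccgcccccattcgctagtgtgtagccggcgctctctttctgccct
Vegfa: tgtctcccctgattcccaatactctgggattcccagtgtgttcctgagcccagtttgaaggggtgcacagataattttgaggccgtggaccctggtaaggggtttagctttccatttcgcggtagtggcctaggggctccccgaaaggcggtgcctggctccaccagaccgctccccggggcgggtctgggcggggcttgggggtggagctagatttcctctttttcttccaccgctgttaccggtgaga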

How the data were processed

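RNA was measured in 12 mouse libraries, and 2 human tables of the line MGHU3 were not used here. Per the submitters' processing notes, Salmon was used, without a version. For the mouse tumours the authors deposited estimated counts and TPM per transcript, each named in the file with its gene identifier and symbol, and both were summed here by gene identifier. For CUUC-G the authors deposited estimated counts and TPM per gene. Those counts are whole numbers, and 153 values had 0 counts with a TPM above 0, so they are rounded estimates. The columns marked mI were taken as sgIgfbp5, because the labels mark the targeted human libraries with hI. Columns matched to no sample numbered 0. Splitting of reads between similar transcripts by Salmon makes isoform values less certain than gene values. The notes name GRCm38; positions, exons and coding lengths came from GENCODE M21 on that build, and the authors' release is not given in the sources used here. Genes overlapping Nrp1 (Mir1903) and Nrp2 (Gm29083, Gm37121) had at most 9 counts in a group.

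Counts were rounded and tested with edgeR 4.0.16 in R 4.3.3 (quasi-likelihood, TMM scaling, filterByExpr, robust, two-sided, Benjamini-Hochberg over all features, threshold 0.05), each comparison on its own 6 libraries. SE is the absolute log2 fold change over the square root of F. CPM used TMM-scaled totals. Biological coefficients of variation were 0.0522 (tumours) and 0.0995 (CUUC-G). No pair of replicates agreed within counting noise. Simulated counts held sets of 50 features with a known change. At 1.5-fold and 2-fold, edgeR found 44 and 50 of them among 14313 genes (relapse), 45 and 50 among 14471 genes (CUUC-G), and 0 and 21 among 33302 transcripts. Both gene simulations used the same fixed dispersion, which was lower than that estimated in CUUC-G, so recovery there may be overstated. The transcript simulation used a higher fixed value, not one estimated from these transcripts, so recovery in the data may differ from it. The changed features averaged at least 50 counts, so genes as low as Pgf were not covered. Intervals and floors cover counting error only.

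Alternatives were RLE factors, library size only, DESeq2 1.42.0, no filter, 1 CPM in 3 libraries, limma 3.58.1 on log2(TPM + 1) for genes averaging 1 TPM or more (also unfiltered, or with 0.1 as pseudocount), a replicate block and each library left out; for shares, estimated counts in place of TPM. Isoforms were described where they held at least 5% of the TPM of a gene with a mean of at least 1 TPM. The text names all members, the 3 genes of each pathway list with the smallest p in each comparison, and the 5 genes most like Vegfa and Kdr, of which 1 is not reported here. Members, lists and rules were chosen with earlier results of these data known. Protein sequences were not used here.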

Additional observations from a re-analysis of the deposited data

How the results depend on the processing

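The calls of members rested on few choices. At relapse Nrp1 lost its call in limma on TPM, with log2 differences of 0.25 (pseudocount 0.1, adjusted p = 0.0744) and 0.24 (pseudocount 1, adjusted p = 0.0747, or 0.13 without a TPM filter). In CUUC-G Flt1 lost its call in the same fits, at -0.30 (adjusted p = 0.359) and -0.25 (adjusted p = 0.368, or 0.484 without a filter). The cause was not tested. Where tested, no other member changed sign or side of the threshold, Pgf at relapse excepted, as given above. Pgf in CUUC-G fell below the filter of 1 CPM in 3 libraries and the TPM filter of limma, and was not tested there; elsewhere it lay between -1.85 and -0.71, with all libraries included. The share of Flt1-204, which rests on 1 count in each of 2 libraries, differed by -4.18 percentage points, and by -8.05 to 3.56 with single libraries left out, the last without control library 3.

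Transcript calls were less firm. Nrp1-201 was not called without control replicate 1 or 3 or relapsed replicate 2 or 3 (edgeR adjusted p 0.0548 to 0.0849), nor Vegfc-201 without the same libraries (0.0622 to 0.0678). In CUUC-G, scaling by library size only moved the median log2 fold change of all genes from 0.06 to 0.17 and no member's call.

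Replicate numbers were shared between groups, but nothing in the labels ties them to an animal or batch. Deviations of same-numbered libraries correlated at 0.019 to 0.036 in the tumours, where each library correlated best with its own number, and at 0.066, 0.127 and -0.221 in CUUC-G. With the replicate number as a block, 6 members were higher and 3 lower at relapse and 2 and 8 in CUUC-G, as without it. Among member transcripts the block left 7 higher and 4 lower, and Vegfc-201 lost its call (edgeR adjusted p = 0.0726). Depth limits Pgf, with 18 to 64 counts per group, and the minor isoforms.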

Other observations

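Kdr lies in a cluster with the receptor tyrosine kinase genes Pdgfra and Kit on chromosome 5, and the genes within 1000000 bases of it were read after its change had been seen. Pdgfra, a fibroblast marker in the lists above, went from 11.2 to 108 CPM at relapse (log2 fold change 3.27 ± 0.08, edgeR adjusted p = 2.67e-20) and from 105 to 3.35 CPM with sgIgfbp5 (-4.97 ± 0.11, edgeR adjusted p = 4.06e-11). Kit was low throughout and went against Pdgfra and Kdr in CUUC-G: it had no count in control tumours and 0.595 CPM at relapse, and rose from 0.293 to 0.894 CPM with sgIgfbp5 (1.58 ± 0.46, edgeR adjusted p = 0.00968). Nmu, beyond Kdr, went from 0.0327 to 0.728 CPM at relapse (4.23 ± 0.83, edgeR adjusted p = 4.9e-05) and from 0.455 CPM to no count with sgIgfbp5. Chic2 had log2 fold changes of -0.30 ± 0.05 at relapse (edgeR adjusted p = 1.33e-05) and 0.69 ± 0.09 with sgIgfbp5 (edgeR adjusted p = 4.21e-05), and Srd5a3 had 0.77 ± 0.08 (edgeR adjusted p = 3.49e-09) and -0.81 ± 0.08 (edgeR adjusted p = 5.62e-06). Clock was not called at relapse, at -0.04 ± 0.08 (edgeR adjusted p = 0.672).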
